A study of Mus musculus with 3 samples.

Results

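The indels described here are the small insertions and deletions that 3 deposited lists place on mouse chromosome 2 between 80 and 95 Mb. Every entry of the window was taken, whatever its annotation, and entries of different lists were treated as the same indel where chromosome, start, reference and alternative bases were identical. The window held 655 of the 23347 indels in the union of the lists, with 408 of 11709 in the parental list, 358 of 10334 in the Y positive list and 424 of 12465 in the Y negative list. The window was chosen by the genotype codes of these same lists, in which homozygous entries are frequent here, so its homozygous share is given as a description without a test.

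The lists came from genomic DNA of MB49, a mouse bladder cancer cell line, grown in one medium and sequenced after hybridization capture of exons. The 3 groups were the parental line, a line labelled Y chromosome positive and a line labelled Y chromosome negative, with 1 library each and no other genotype or agent named. How the Y positive and Y negative lines were obtained, and whether either is 1 clone, is not given in the sources used here. The description fields call the Y positive sample MBN and the Y negative sample MBP, letters that no label explains and that could be read the other way round, so each library is named by its label. With 1 library per group, a test between libraries compares the reads of those libraries and not the conditions.

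An indel is called homozygous when nearly all reads at the site carry the alternative bases, and heterozygous when reads of the reference bases are also present. A diploid cell that has lost or never had a different second copy of a region shows homozygous entries there and few heterozygous ones, whereas 2 different copies give heterozygous entries at about equal read numbers. Exome capture reads mainly exons and the bases around them, so entries fall in clusters around captured genes and say nothing of the ground between them. The middle of mouse chromosome 2 carries a large cluster of olfactory receptor genes, a family of odorant-detecting receptors whose coding sequence usually lies in 1 exon and whose members are often close copies of each other. The lists name transcripts by Ensembl identifiers without symbols, so no gene names are given.

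Positions are those of the lists. The largest position on chromosome 1 was 197068016, beyond the last gene end of 195291439 in the GRCm38 gene table, so they are not mm10 positions. The other build named in the submitters' processing notes is mm9. The lists do not state the build of each file.

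The sequences that carry the coding changes come first, since these are the entries with a predicted effect on a protein. In each genomic line the lower-case letter is the base the list gives before the change, and the capitals are the inserted or deleted bases on the plus strand. The first is a 73-base insertion at chr2:80368823-80368823 that the lists annotate as a stop gain. The next is a 59-base frameshift deletion at chr2:86296017-86296075. The last 3 are a 2-base deletion, a 2-base insertion beside it, and the 3 bases inserted in 2 different transcripts.
ENSMUST00000028386, insertion: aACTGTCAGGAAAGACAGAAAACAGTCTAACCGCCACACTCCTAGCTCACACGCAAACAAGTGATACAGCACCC
ENSMUST00000099885, deletion: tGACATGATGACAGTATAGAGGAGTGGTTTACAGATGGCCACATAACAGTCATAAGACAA
ENSMUST00000090717, deletion: cCT
ENSMUST00000090717, insertion: gCA
ENSMUST00000099769 and ENSMUST00000099767, insertion: aGTT

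The insertion in ENSMUST00000028386 was also read on the coding strand, as the lists' coding annotation gives it, with the first stop codon in frame in capitals.
ENSMUST00000028386, coding strand: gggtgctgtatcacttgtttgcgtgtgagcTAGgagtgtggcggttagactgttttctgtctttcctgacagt
It follows coding base 1629 of ENSMUST00000028386, base 1563 of ENSMUST00000111759 and base 1647 of ENSMUST00000111760, each a whole number of codons. Read from there, 10 codons precede the stop, and 40 inserted bases follow it.

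Depth, the number of reads the lists give for a site, decided how far a genotype could be read. Across the whole lists the median depth was 9 reads in the parental, 13 in the Y positive and 7 in the Y negative library. Of the members below 5 reads, 148 of 150 in the parental list were homozygous, and so were 87 of 87 in the Y positive and 168 of 168 in the Y negative list. At so few reads a homozygous call says little, since a heterozygous site can show 1 allele by sampling. Genotypes were therefore read at 20 reads or more, which kept 162 entries of the window in the parental list, 162 in the Y positive list and 156 in the Y negative list.

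At that depth 125 of 162 parental entries were homozygous (77.2%, exact Clopper-Pearson 95% interval 69.9 to 83.4). In the Y positive library the count was 121 of 162 (74.7%, interval 67.3 to 81.2), and in the Y negative library 117 of 156 (75%, interval 67.4 to 81.6). The intervals cover counting error only. The entries are mostly the same sites in each list, so the libraries were not compared by this share. On the rest of chromosome 2 homozygous entries were 34 of 222, 41 of 219 and 31 of 208 in the same order, or 15.3%, 18.7% and 14.9%. On the autosomes without the window they were 25.2%, 25.2% and 24.2%. These shares were used to choose the window and are not evidence for it.

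The window was also dense in entries. It held 162 of 384, 162 of 381 and 156 of 364 chromosome 2 entries at 20 reads or more, and 78.6%, 74.7% and 79.1% of the homozygous ones. Per Mb of window there were 10.8, 10.8 and 10.4 entries, against 1.33, 1.31 and 1.25 per Mb over the rest of the chromosome. How much of this density follows the number of captured exons was not tested, since the captured regions were not used here. High counts at this depth were not particular to the window. Chromosome 3 from 85 to 95 Mb held 168, 170 and 167 entries in the same library order. Chromosome 11 from 40 to 55 Mb held 139, 130 and 129.

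**Figure D1:**
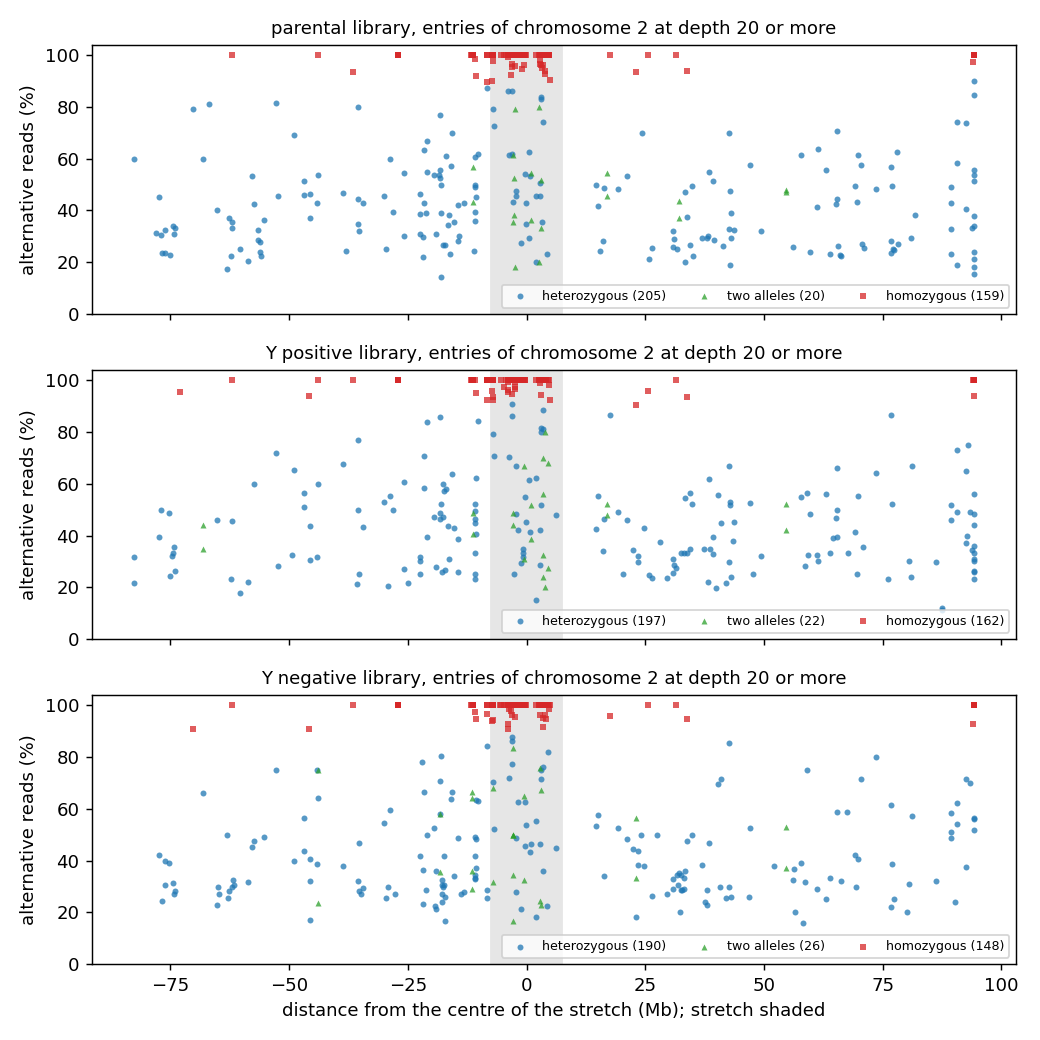
Percentage of reads carrying the alternative bases at each chromosome 2 entry of depth 20 or more, against distance in Mb from the centre of the window, 1 panel per library; red squares are homozygous, blue circles heterozygous and green triangles entries of sites with 2 alternative alleles. Inside the shaded window most points lie at 90% or above in all 3 panels, and outside it most lie below 70%.

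Homozygous entries did not fill the window evenly. Between 80 and 87 Mb they were 77 of 93 in the parental, 82 of 97 in the Y positive and 75 of 93 in the Y negative library. Between 90 and 93 Mb they were 43 of 54, 36 of 51 and 38 of 49. Between 87 and 90 Mb they were only 5 of 15 (33.3%, interval 11.8 to 61.6), 3 of 13 (23.1%, interval 5.04 to 53.8) and 4 of 13 (30.8%, interval 9.09 to 61.4). All 3 libraries thus showed a dip in the middle of the window at this depth, though on few entries. With no depth minimum the counts from 87 to 90 Mb were 40 of 52, 18 of 29 and 29 of 39. From 80 to 87 Mb they were then 207 of 229, 176 of 200 and 233 of 263, and from 90 to 93 Mb 110 of 125, 99 of 127 and 98 of 118. These limits were read off 1 Mb bins after the values were seen, so no test was made.

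The upper border differed from the lower one. The last homozygous member at 20 reads or more was the same indel in all 3 libraries, a 3-base deletion at chr2:92455308-92455310 in a 3′ untranslated region of ENSMUST00000065797. It was read in 19 of 21 reads in the parental, 24 of 26 in the Y positive and 21 of 21 in the Y negative library. Above it, the next entry of the parental list was a heterozygous deletion at 102015033 with 13 of 26 reads. In the Y positive list it was a heterozygous deletion at 93703401 with 11 of 23 reads, and in the Y negative list one at 93697029 with 21 of 47 reads. The last unbroken series of homozygous entries in the window thus ended before 93703401 in the Y positive and before 93697029 in the Y negative list. Single heterozygous entries also lie among homozygous ones inside the window. From 95 to 100 Mb 0 entries reached 20 reads in any library. Where the wider homozygous pattern ends above 92.455308 Mb therefore cannot be read at this depth.

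At any depth, 3 parental, 5 Y positive and 17 Y negative entries lay between 93 and 102 Mb, of which 2, 2 and 15 were homozygous. A run of 11 homozygous Y negative entries from 93730785 to 99813022 was built only from sites below 20 reads.

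Homozygous entries were also found below 80 Mb. The last homozygous entry below the window was a deletion at 79250643, read in 188 of 188, 175 of 175 and 206 of 206 reads. The first homozygous member was a deletion at 80161375 in the parental (29 of 29) and Y positive (20 of 20) libraries, and an insertion at 80164740 in the Y negative library (152 of 162). The 5 Mb below the window held 25 parental entries, 14 of them homozygous, with 19 of 31 homozygous in the Y positive and 14 of 30 in the Y negative list. The lowest of these, a 2-base deletion at 75816288, was read in 43 of 43, 36 of 36 and 50 of 50 reads. From 65 to 75 Mb, 0 entries of any library were homozygous at 20 reads or more, and the last homozygous entries before that gap lay at 60368659 in the parental and Y positive and at 60368661 in the Y negative library. The nearest of these entries were continuous with the window. An unbroken series of homozygous entries of this depth crossed 80 Mb in every library and ended at 80381694. It began at 79178677 in the parental, 79154964 in the Y positive and 79250440 in the Y negative library. The homozygous entries further below were separated from it by heterozygous ones. From 76600558 to 76686502 every entry of this depth was heterozygous in every list that held it, for example a deletion at 76613852 with 76 of 152, 82 of 157 and 67 of 161 reads and a 2-base insertion at 76686502 with 45 of 92, 47 of 105 and 31 of 90. Homozygous entries at 76715862 and 76784075 and further heterozygous ones up to 77174054 followed, and the next entry of this depth lay at 79154964. No single lower border can therefore be placed.

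**Figure D2:**
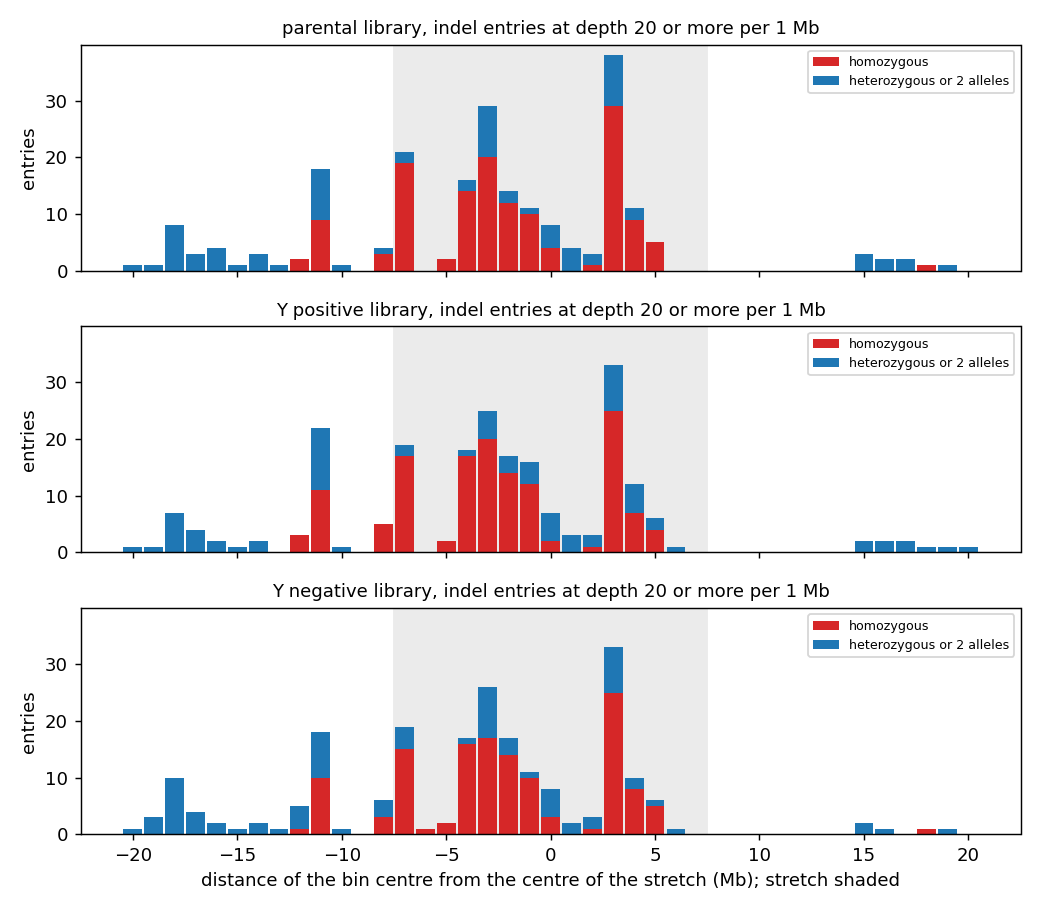
Number of indel entries at depth 20 or more in each 1 Mb bin within 20 Mb of the centre of the window (shaded), stacked as homozygous in red and heterozygous or 2 alleles in blue, 1 panel per library. The 3 panels share peaks near −3 and 3 Mb from the centre, a low between them, and empty bins above the window; homozygous bars continue below its lower edge.

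Single entries of other genotype cut the homozygous pattern into short runs. A run is a series of neighbouring entries of the same genotype class at 20 reads or more. The window held 21 homozygous runs in the parental, 22 in the Y positive and 23 in the Y negative library, with at most 23, 19 and 19 entries. The longest by span covered 1.42 Mb with 4 entries in the parental library, 1.68 Mb with 19 entries in the Y positive and 1.86 Mb with 19 entries in the Y negative. These are largely the same ground. The Y negative run went from 81894068 to 83755344 and the Y positive run from 82075830 to 83755344, whereas the parental run stopped at 83498348.

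The parental run was ended by 1 indel, a single-base insertion at 83602005 in an intron of ENSMUST00000028499. It had 88 of 102 alternative reads and a heterozygous code in the parental library, but 101 of 105 and 91 of 100 reads and a homozygous code in the other two. With the rule that an alternative share of 0.8 makes a site homozygous, the parental run reached 83755344 and 1.68 Mb as well. Without single-base A or T indels the longest run grew to 4.50 Mb in the parental and 4.57 Mb in the Y positive library, both from about 79.2 Mb to 83755344, and stayed at 1.86 Mb in the Y negative. Run lengths in this window thus turned on a few entries and on the code given to them.

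On the rest of chromosome 2 the picture was the opposite. Among runs wholly outside the window, those not homozygous reached 62, 65 and 53 entries in the 3 libraries, while homozygous ones held at most 7, 9 and 8.

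The entries that ended a homozygous run were partly shared. In all 61 positions of this kind were found, of which 14 ended a run in every library and 38 in 1 library alone. Of the 14, those at 80393609, 84445231, 85172060, 86408034, 89497689 and 90240772 are described below.

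Of the indels with 20 reads or more in every library, 124 lay in the window. The genotype was homozygous in all 3 libraries at 99 of them (79.8%), homozygous in none at 15, in 2 libraries at 8 and in 1 library at 2. On the rest of chromosome 2 the indels homozygous in every library were 24 of 94 (25.5%). Of the 99 members, 78 had not a single reference read in any library.

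The homozygous entries were nearly free of reference reads. Reference reads made up 50 of 7448 reads (0.671%) at the parental, 34 of 7338 (0.463%) at the Y positive and 50 of 7200 (0.694%) at the Y negative homozygous members. Of these entries 108 of 125, 106 of 121 and 103 of 117 had none. Most of the reference reads, 36 of 50, 20 of 34 and 41 of 50, sat at single-base A or T indels. The homozygous code is itself set from the reads, so a low reference share among these entries is part of its meaning.

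The deepest homozygous members show what the code stands for. A deletion of A at 85448971, a coding change described below, had 209 of 209, 185 of 185 and 223 of 223 alternative reads in the parental, Y positive and Y negative libraries. A 3-base deletion at chr2:80187477-80187479 in an intron of ENSMUST00000028392 had 208 of 208, 182 of 182 and 193 of 193. An 8-base insertion at 90656556 in an intron of the non-coding transcript ENSMUST00000149037 had 170 of 170, 141 of 141 and 154 of 154. Of the 10 deepest, the lowest alternative share was 90% (117 of 130 reads), at the single-base insertion at 80164740 in the parental library. The first 3 of these indels stood at 100% in every library. A homozygous code in all 3 libraries was the condition for choosing these members, so high shares in each follow from the choice.

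Among entries of 20 reads or more that were not homozygous, 12 of 37 in the parental, 14 of 41 in the Y positive and 14 of 39 in the Y negative library belonged to sites with 2 alternative alleles. Such a site is listed as 2 entries and carries few reference reads, 15 of 240, 15 of 290 and 12 of 367 in the 3 libraries. Counting each site once and adding both alternative alleles, at least 0.8 of the reads differed from the reference at 135 of 156 parental sites (86.5%), 134 of 155 Y positive sites (86.5%) and 127 of 149 Y negative sites (85.2%). This alternative was chosen after seeing the data. The rest of chromosome 2 stood at 20.2%, 22.8% and 20.3% by the same rule.

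That left 13 members with 1 alternative allele, 20 reads or more and a heterozygous code in every library, and they fell into 2 groups by place, a split made after the values were seen. The 4 between 80393609 and 84506284 had alternative shares of 52.4 to 90.6%, with a median of 78.2%. The 9 between 85172060 and 90240772 had shares of 15.2 to 66.7%, with a median of 45.6%. Single-base A or T indels made up 3 of the first 4 and 5 of the 9.

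In the lower group, the deletion at 84506284, in an intron of the non-coding transcript ENSMUST00000133437, was read in 37 of 43, 37 of 43 and 43 of 49 reads. The insertion at 80393609, in an intron of the non-coding transcript ENSMUST00000131872, had 19 of 24, 23 of 29 and 19 of 27. A 6-base insertion at 84445231, in an intron of the non-coding transcript ENSMUST00000141151, had 21 of 34 reads in the parental, 29 of 32 in the Y positive and 17 of 22 in the Y negative library. Alternative reads outnumbered reference reads at each of these in every library.

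In the upper group, several sites stood close to equal numbers of both alleles. The deletion at 90240772, upstream of ENSMUST00000099753, was read in 72 of 142, 45 of 107 and 57 of 123 reads. The insertion at 89497689, in a 5′ untranslated region of ENSMUST00000099768, was read in 26 of 57, 43 of 69 and 41 of 74 reads. A 2-base deletion at chr2:86408034-86408035, in an exon of the non-coding transcript ENSMUST00000120210, was lower, with 36 of 131, 39 of 133 and 33 of 154 reads. The heterozygous code in all 3 libraries was the condition for choosing these members.

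**Figure D3:**
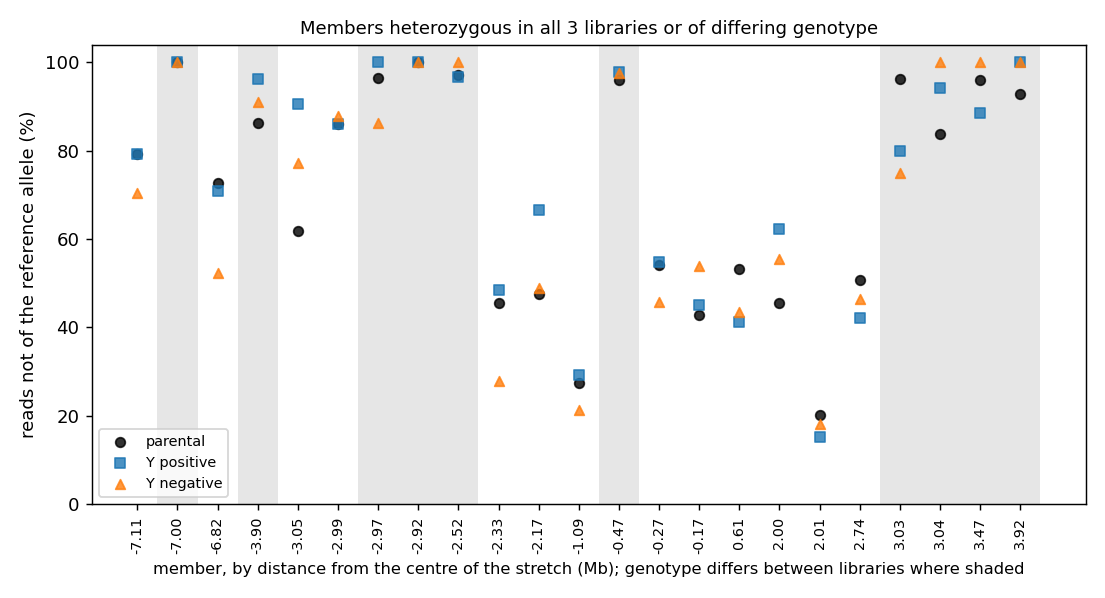
Percentage of reads that differ from the reference at the 13 members heterozygous in all 3 libraries and, on grey, the 10 whose genotype code differed between libraries, ordered by distance in Mb from the centre of the window; black circles are parental, blue squares Y positive and orange triangles Y negative. The grey sites lie at 75% or above in every library, and the 9 heterozygous sites from −2.33 to 2.74 Mb lie between 15.2 and 66.7%.

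The 10 members whose code differed between libraries had mostly non-reference reads throughout. Their non-reference share ran from 75 to 100%, with a median of 96.9% over the 3 libraries. This share adds both alleles where a site had 2 alternative alleles, so it does not make such a site homozygous. At 87031775 the listed allele had 24 of 25 parental reads, but 30 of 45 in the Y positive and 28 of 43 in the Y negative library. An 18-base insertion at 80497558, in an intron of the non-coding transcript ENSMUST00000135305, had only alternative reads in all 3, with 38 of 38 and 40 of 40 for 1 allele in the parental and Y positive libraries and 30 of 44 in the Y negative, where the other 14 carried another allele. At 90533377, in an intron of the non-coding transcript ENSMUST00000136739, 26 of 27 reads in the parental, 16 of 20 in the Y positive and 18 of 24 in the Y negative library were alternative. The inserted or deleted bases were only A or only T at 6 of the 10, and 1 dinucleotide, once or repeated, at the other 4. Among the 99 indels homozygous in every library those classes made up 42 and 13.

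The reads of each pair of libraries were compared site by site with a two-sided Fisher exact test, adjusted by Benjamini-Hochberg over all sites of the lists that had 1 alternative allele and 20 reads or more in both. Of the members, 129 were tested for the Y positive against the parental library, 124 for the Y negative against the parental and 127 for the Y negative against the Y positive. With the adjusted p under 0.05, 0 members were called in each comparison, against 0.874%, 0.302% and 0.794% of all sites tested. A count of 0 of so few leaves room for shares up to 2.82%, 2.93% and 2.86% (upper Clopper-Pearson limits), above those backgrounds, so a lower rate in the window was not shown. Unadjusted, 2, 3 and 2 members had p under 0.05 (1.55%, 2.42% and 1.57%), where all sites gave 6.23%, 5.47% and 6.2%. Among members not homozygous in both libraries, 2 of 20, 2 of 19 and 2 of 18 had it (10%, 10.5% and 11.1%). All sites not homozygous in both libraries gave 9.36%, 7.94% and 9.06%. Since 109, 105 and 109 of the tested members were homozygous in both libraries, most had little room to differ. An indel missing from 1 of the 2 lists was not tested.

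The smallest p of a member came from the 6-base insertion at 84445231, with 29 of 32 Y positive against 21 of 34 parental reads (Fisher exact p = 0.00902, adjusted p = 0.387). For the Y negative against the Y positive library it was the single-base insertion at 85172060, in a 5′ untranslated region of ENSMUST00000099929, with 19 of 68 against 31 of 64 reads (Fisher exact p = 0.0197, adjusted p = 0.565). For the Y negative against the parental library it was the insertion at 90533377, with 18 of 24 against 26 of 27 reads (Fisher exact p = 0.042, adjusted p = 0.907). None of these held after adjustment.

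Of the 655 members, 235 were in all 3 lists (35.9%, interval 32.2 to 39.7), against 178 of 1277 on the rest of chromosome 2 (13.9%, interval 12.1 to 16). Restricted to indels with 20 reads or more in at least 1 library, the counts were 155 of 204 (76.0%, interval 69.5 to 81.7) and 128 of 365 (35.1%, interval 30.2 to 40.2). Homozygous members of that depth in the parental list were in all 3 lists in 122 of 125 cases, and those not homozygous in 20 of 37. Outside the window on chromosome 2 these counts were 31 of 34 and 84 of 188, so the genotype moved with the sharing in both places. Members in a single list numbered 127 parental, 79 Y positive and 149 Y negative, each with a median depth of 2 reads. High shares were also found in 2 other stretches of these lists that hold many homozygous entries. In chromosome 3 from 85 to 95 Mb 35.1% of indels were in all 3 lists and 80.2% of those of that depth, and in chromosome 11 from 40 to 55 Mb the counts were 232 of 774 and 141 of 163 (86.5%). No test was made of these shares, because the genotypes that chose the window move with them.

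Depth was compared as a measure that the choice of the window did not use. At the 225 member sites with 1 alternative allele in all 3 lists, the log2 ratio of depths, centred on the autosomal median, had a median of 0.02 (95% order-statistic interval 0 to 0.09) for the Y positive over the parental library. It was 0.01 (interval −0.09 to 0.03) for the Y negative over the parental and −0.05 (interval −0.13 to 0) for the Y negative over the Y positive. The intervals are for the median over sites of 3 libraries and cover no difference between cultures. Single sites spread more widely. The quartiles were −0.26 and 0.30, −0.31 and 0.31, and −0.43 and 0.21 in the same order. The 171 sites on the rest of chromosome 2 had medians of 0, −0.05 and −0.05. A copy number shared by all 3 libraries cannot be read from these ratios.

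Of the 225 member sites, 16, 17 and 16 were past 1 in either direction in the 3 pairs (7.11%, 7.56% and 7.11%), against 5.47%, 6.27% and 6.48% of autosomal sites outside the window. Of the 117 with 20 reads or more in every library, 0 were. The greatest differences among those 117 were single sites. The insertion at 91397668, in an intron of the non-coding transcript ENSMUST00000133633, had depths of 82 parental, 41 Y positive and 52 Y negative, a log2 ratio of −0.99 for the Y positive over the parental library. The 2-base insertion at 85962918, in an exon of the non-coding transcript ENSMUST00000059398, had depths of 49, 97 and 70, a log2 ratio of 0.98 for the same pair.

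**Figure D4:**
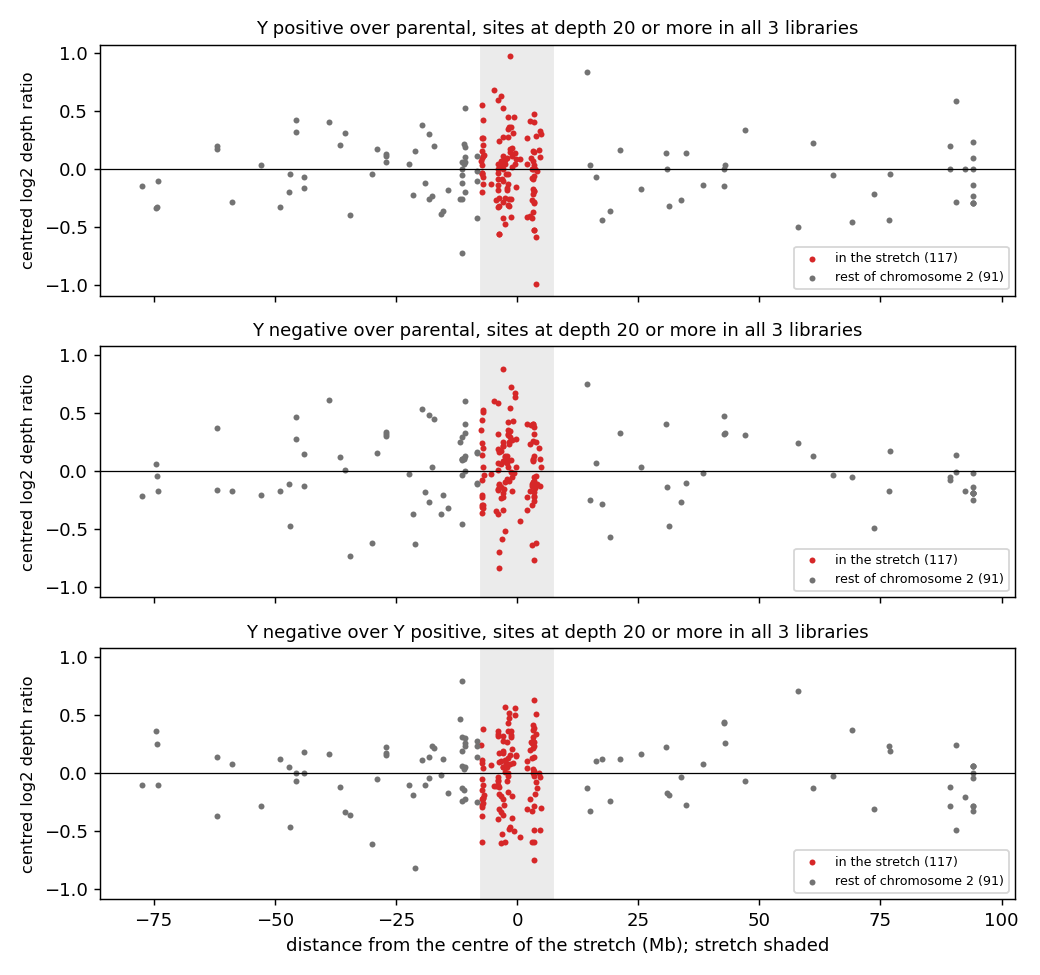
Centred log2 ratio of depth between each pair of libraries at the chromosome 2 sites with 20 reads or more in all 3, against distance in Mb from the centre of the window; red points are the 117 members, grey points the 91 sites on the rest of the chromosome, and the shading marks the window. Red and grey points spread around 0 in all 3 panels, and none passes 1 or −1.

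The coding members numbered 10, with 6 annotated as frameshifts, 3 as in-frame and 1 as a stop gain. Of these, 9 were in all 3 lists. At 20 reads or more in every library there were 7, of which 5 were homozygous and 2 heterozygous in all 3. The rest of chromosome 2 had 6 coding indels, of which 0 were homozygous in all 3 libraries at that depth. These counts are too small to compare.

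The stop-gain insertion of 73 bases in ENSMUST00000028386, printed above, was read in 26 of 26 reads in the parental, 29 of 29 in the Y positive and 28 of 28 in the Y negative library. The deletion of 1 A at 85448971, a frameshift at coding base 95 of ENSMUST00000099921, was the deepest member of the window. The 59-base deletion of ENSMUST00000099885, at coding base 352, was read in 13 of 13, 18 of 18 and 19 of 19 reads, below the depth at which genotypes are read here. No reference read was seen at any of these 3 in any library.

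In ENSMUST00000090717 a deletion of CT at chr2:87149078-87149079 and an insertion of CA at 87149080 lay side by side, at coding bases 131 and 133. The deletion was read in 28 of 28, 31 of 31 and 44 of 44 reads and the insertion in 30 of 30, 31 of 31 and 46 of 46. Each is annotated as a frameshift on its own. Together they remove and add 2 bases each, so on 1 chromosome copy the reading frame after them would be that of the reference. Since both had no reference read, both were on every copy that was read.

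A matched case was seen in the 3-base insertions. The bases GTT were inserted at 89470592 in ENSMUST00000099769 and at 89507580 in ENSMUST00000099767, 36988 bases apart and at coding base 461 of both transcripts. In ENSMUST00000099769 the insertion was homozygous, with 60 of 60, 62 of 62 and 50 of 50 reads. In ENSMUST00000099767 it was heterozygous, with 39 of 193 reads in the parental (20.2%), 22 of 145 in the Y positive (15.2%) and 27 of 149 in the Y negative library (18.1%), and the site was deeper than the other in every library. Whether reads of similar transcripts were placed at either site was not tested.

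The other heterozygous coding member was an insertion of T at 87332434, a frameshift at coding base 141 of ENSMUST00000026957. It was read in 33 of 77 reads in the parental, 37 of 82 in the Y positive and 49 of 91 in the Y negative library, close to equal numbers of both alleles in all 3. The remaining 2 coding members were shallow. An insertion of A at 90757866, annotated as exonic and splicing in ENSMUST00000111461 and ENSMUST00000077874, had 6 of 6, 2 of 2 and 3 of 3 reads. A 12-base in-frame insertion at 83653031 in ENSMUST00000051454 was in the Y positive list with 1 of 1 read and in the Y negative list with 4 of 4 and not in the parental list, a difference that cannot be read at this depth.

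Untranslated regions, splice sites and exons of non-coding transcripts held 38 indels with 20 reads or more in at least 1 library. Of these 32 were in all 3 lists and 27 were homozygous in every library. ENSMUST00000057019 carried 5 of them between 84976644 and 84980018. Its 5′ insertion at 84976644 was read in 31 of 31, 32 of 32 and 21 of 21 reads, and its 3′ insertion at 84978931 in 128 of 128, 107 of 108 and 117 of 117. The only splice-site indel of that depth was a single-base insertion at 86646236 in ENSMUST00000070704, homozygous with 37 of 37, 46 of 46 and 49 of 49 reads. ENSMUST00000038223 carried 2 insertions in its 3′ untranslated region, 1 base at 83755323 (119 of 119, 100 of 100 and 107 of 107 reads) and 4 bases at 83755344 (156 of 156, 125 of 125 and 139 of 141 reads), and the latter ended the longest run in the Y positive and Y negative libraries.

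By annotation the union of members was mostly non-coding, with 182 intronic, 161 intergenic and 150 in introns of non-coding transcripts. Intergenic entries were 59 parental, 20 Y positive and 87 Y negative, and 0 of them reached 20 reads in any library. The 398 members inside genes named 144 first transcripts, 79 of which had 1 entry. The transcript with most entries was ENSMUST00000028718, with 32 between 90958398 and 90974083, of which 19 were in all 3 lists. At 20 reads or more its homozygous entries were 10 of 10 in the parental list, 9 of 10 in the Y positive list and 8 of 9 in the Y negative list. ENSMUST00000028499 had 16 entries, homozygous at that depth in 7 of 8, 10 of 10 and 9 of 9. In ENSMUST00000023994 both entries of that depth were the 2 alleles of 1 site, at 84607332, with 1 reference read of 31, 3 of 43 and 4 of 26, so a site without the homozygous code there also had few reference reads.

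The mix of indel kinds in the window is given beside that of the rest of chromosome 2, the autosomes and the 2 other stretches. Among indels of 20 reads or more in every library, deletions were 59 of 124 members (47.6%) against 73.4% on the rest of chromosome 2 and 71.7% on the autosomes. Among those homozygous in all 3 libraries the gap was small, with deletions at 53 of 99 (53.5%) in the window, 14 of 24 (58.3%) on the rest of the chromosome and 58.6% on the autosomes. Single-base A or T indels were 34.7% of members, against 48.9% and 47.9%, and indels of 5 or more bases 14.5%, against 8.51% and 10.4%. Inside the window the homozygous share was 31 of 43 for single-base A or T indels, 13 of 15 for single-base G or C indels, 39 of 48 for those of 2 to 4 bases and 16 of 18 for longer ones. Over all entries of 20 reads or more, deletions were 51.9%, 53.7% and 51.3% of members in the parental, Y positive and Y negative lists, 51.1%, 53.8% and 52.7% in chromosome 11 from 40 to 55 Mb, and 57.7%, 58.2% and 58.7% in chromosome 3 from 85 to 95 Mb. The share of single-base A or T indels was 35.2%, 34.6% and 31.4% among members and 24.1 to 26.4% in those 2 stretches. No test was made, since genotype chose the window and indel type moves with genotype elsewhere too.

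Among the longer members homozygous in all 3 libraries, a 12-base deletion in an exon of the non-coding transcript ENSMUST00000135305 removed a run of 1 dinucleotide, and a 12-base insertion in ENSMUST00000028718 added bases of mixed composition. They are printed as examples of both kinds, with capitals for the changed bases.
ENSMUST00000135305, deletion: tTGTGTGTGTGTG
ENSMUST00000028718, insertion: tCAGGACCTGGGG
The deletion, at chr2:80497250-80497261, was read in 46 of 46, 42 of 42 and 36 of 36 reads. The insertion, at 90958398, was read in 79 of 79, 76 of 76 and 45 of 45 reads.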

How the data were processed

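Each list gives, per the deposited files, an indel's position, bases, annotation, a genotype code as a fraction (0.5 heterozygous, 1 homozygous), a quality score, the depth as a count of reads and the counts of reads per allele. The submitters' processing notes name BWA and Picard without versions. Which indel caller, annotation tool and exome kit served is not given in the sources used here. Every entry carried a PASS filter. No reads were realigned, so placement in repeats or gene copies is that of the authors. Reads without molecular identifiers are not independent molecules.

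Entries were matched by chromosome, start and bases with Python 3.11.15, pandas 2.3.3 and SciPy 1.17.1. Genotypes were read at 20 reads or more, from the allele code stored with the read counts and not from the fraction. That code also marks sites with 2 alternative alleles. Fisher exact tests compared allele reads per pair of libraries, adjusted over all sites. Depth ratios used log2 of depth plus 0.5 reads. The Fisher exact test was checked only on reads simulated as independent draws, a setting that the reads here need not meet. Named indels were the coding, untranslated, splice and heterozygous members, those at run borders, the 10 deepest homozygous ones, and those of extreme depth ratio or smallest p; the 2 long example sequences were chosen after their values were seen. The members and lists were chosen with earlier results of these data known. None of the 263 transcript identifiers was found in the RefSeq gene table.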

Additional observations from a re-analysis of the deposited data

How the results depend on the processing

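No paired analysis was possible because each group had 1 library. Of 60 alternative values over 14 results, 37 stayed within the interval or within 1.5 times the first value. The homozygous share rose to 87.7%, 82.1% and 85.6% (parental, Y positive, Y negative) with no depth minimum, and to 85.9%, 84.3% and 82.6% for indels in all 3 lists. With sites counted once, 86.5%, 86.5% and 85.2% of sites had at least 0.8 of reads other than the reference. That rule was added after seeing the data. It adds all alternative alleles of a site, so it is not a homozygous share. The longest run that reaches into the window was not always the same run. It was 4.50 Mb (parental) and 4.57 Mb (Y positive) without single-base A or T indels, 3.21 Mb (Y positive, from 77174054 to 80381694) with an allele fraction of at least 0.8 and also with sites counted once, and in the Y negative library 1.20 Mb at 10 reads (79181820 to 80381694) and 6.08 Mb with no minimum (93730785 to 99813022), the last 3 lying mostly outside the window. Unadjusted, 2, 3 and 2 members differed in allele fraction where 0 did after adjustment. The median log2 depth ratio of the Y negative library became 0.056 over the parental with the rest of chromosome 2 as centre, and over the Y positive 0.00058 with that centre and 0.014 at 20 reads in every library. The share in all 3 lists rose to 76.0% at 20 reads in at least 1 library and to 40.1% with matches of type within 5 bases. Depth limits the upper border, where 0 entries from 95 to 100 Mb reached 20 reads, and the intergenic members, of which 0 did.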
